A study of Mus musculus with 16 samples.

Results

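The comparison set the gonadal fat of mice that had lost both vagal signalling to the abdomen and melanocortin signalling in the brain against the fat of mice that had lost neither. It used 8 of the 16 libraries of the series, taken by their group labels alone and covering all genes: the 4 libraries named VX_SHU and the 4 named Sham_Veh. All mice were lean males of the inbred C57BL/6J strain, 16 weeks old, kept on chow, and every group was given the same calories during the infusion. VX_SHU mice had subdiaphragmatic vagotomy (sDVX) and, from 4 weeks after surgery, SHU9119 at 1 nmol per day into the brain ventricles for 2 weeks from an osmotic minipump. Sham_Veh mice had sham surgery and the vehicle by the same route for the same time, so an operation and a brain infusion were common to both groups. The other two groups had 1 manipulation each, SHU9119 after sham surgery (Sham_SHU) or vehicle after vagotomy (VX_Veh), and served here for values given side by side and for the estimate of spread. The sources used here do not give how complete the nerve section or the receptor block was in each mouse. Whether every library stands for its own animal is not stated in the labels; p-values therefore cover the variation among libraries, which could be technical in part.

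The vagus nerve links the brain with the organs of the abdomen in both directions, and subdiaphragmatic vagotomy cuts it below the diaphragm. SHU9119 is a peptide antagonist of the melanocortin receptors of the brain, through which pro-opiomelanocortin neurons restrain feeding and set sympathetic outflow to fat. Blocking these receptors is known to favour lipid storage in white fat even when intake is held equal. White adipocytes make fatty acids from citrate through Acly, Acaca and Fasn, desaturate them through Scd1 and Scd2, and make sterols through a separate chain of enzymes, and the SREBP transcription factors drive many genes of both chains.

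Totals of assigned reads were 24091580 to 26253647 in Sham_Veh and 22678647 to 30889052 in VX_SHU, and levels are given as CPM, counts scaled to a common library size, after TMM scaling, which corrects for differences in library composition. Adipocyte markers were abundant in the 8 libraries, with Adipoq, the adiponectin gene, at 2167 CPM or more in each of them. Ucp1, the defining gene of brown fat, lay below the filter on low counts, at 0.0886 CPM or less. Transcripts of neighbouring reproductive tissue were also present. The summed level of 23 epididymis markers was 6.89, 114, 726 and 709 CPM in Sham_Veh and 16.1, 63.8, 7.95 and 12400 CPM in VX_SHU, and 4 of them (Lcn10, Defb41, Lcn9 and Cst11) had no count in any VX_SHU library. The summed level of 20 testis and sperm markers was 388, 144, 66.2 and 3896 CPM in Sham_Veh and 67.7, 171, 86.8 and 472 CPM in VX_SHU, with no marker at 0 throughout a group. Sham_Veh3, Sham_Veh4 and VX_SHU4 reached 500 CPM of either list, and so did 3 of the other 8 libraries. The part of these markers in the results was examined only by fits with marker covariates and by leaving libraries out. Values without the 6 libraries concerned are given for several groups whose count or median they moved.

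**Figure D1:**
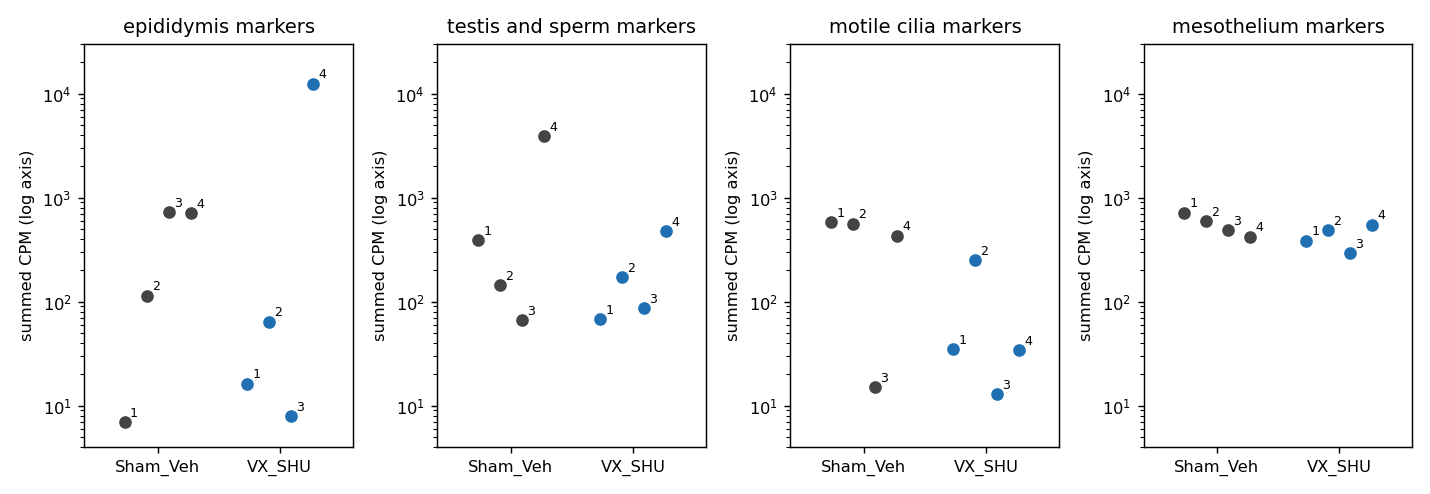
Summed CPM (log axis) of 4 marker lists in each of the 8 libraries; points are libraries, with their replicate number. The single VX_SHU library at 12400 CPM of epididymis markers and the single Sham_Veh library at 3896 CPM of testis markers stand far above the rest of their groups.

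The net effect of both manipulations on the transcriptome was small against the spread between libraries. Islr was the 1 gene of 16682 tested (0.00599%) whose level differed between VX_SHU and Sham_Veh at an adjusted p below 0.05 (edgeR quasi-likelihood test, Benjamini-Hochberg adjustment), and it rose. At an unadjusted p below 0.05 stood 1651 genes (9.9%), of which 536 (3.21%) were higher and 1115 (6.68%) lower in VX_SHU. Without Sham_Veh4 there were 842 such genes, of which 643 were higher, so the excess of lower genes was not seen without that library. All 4 VX_SHU libraries exceeded all 4 Sham_Veh libraries for 408 genes (2.45%), and all lay below them for 312 (1.87%). These shares are the background against which the gene groups below are read.

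Islr (chr9:58156246-58159236, mm10) encodes meflin, a secreted or membrane-anchored protein with leucine-rich repeats and an immunoglobulin domain that marks mesenchymal stromal cells and fibroblasts. Islr read 44.1, 43, 45.02 and 38.1 CPM in Sham_Veh (42.6 ± 3.08, SD, n = 4) and 65.9, 63.6, 62.1 and 62.5 CPM in VX_SHU (63.5 ± 1.72, SD, n = 4). The groups were far apart, and the VX_SHU libraries were close to one another. The log2 fold change was 0.58 (SE 0.08, 95% interval 0.42 to 0.74), with an edgeR adjusted p of 0.0395. No library with 1 manipulation reached this level: Sham_SHU libraries read 42.2, 54.1, 47.2 and 48.0 CPM, and VX_Veh libraries 51.2, 55.7, 48.2 and 51.5 CPM. Side by side, the log2 difference from Sham_Veh was 0.17 for Sham_SHU, 0.28 for VX_Veh and 0.58 for VX_SHU, and the interaction term, the part beyond the sum of the single effects, was 0.13 and not past the threshold. The value held its size in the alternatives, between 0.55 and 0.62, and was 0.59 without the libraries rich in reproductive-tract markers. The edgeR call did not: the adjusted p was 0.115 when only the 2 groups were fitted and 0.392 without the marker-rich libraries, and with 1 library left out Islr passed only when that library was Sham_SHU1, Sham_SHU2, Sham_SHU3 or VX_Veh1.

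The promoter of Islr is shown because it belongs to the called gene, beside those of Lss and Insig1, a sterol enzyme and a sterol sensor whose levels are described below. Each run holds the bases from 250 to 51 before the start in the RefSeq promoter table (GRCm38.p6), read 5′ to 3′ on the strand of the gene, with motif matches in capitals. The letters searched on both strands were TCACCCCAC (core of the sterol response element), CCAAT (shown as ATTGG where it lies on the other strand) and CACGTG (E-box), and these do not overlap one another.
Islr, chr9:58158605-58158804, minus strand: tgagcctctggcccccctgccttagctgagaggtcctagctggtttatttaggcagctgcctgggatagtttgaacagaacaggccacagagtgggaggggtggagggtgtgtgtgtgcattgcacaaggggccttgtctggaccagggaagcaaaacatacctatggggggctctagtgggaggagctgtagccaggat
Lss, chr10:76531355-76531554, plus strand: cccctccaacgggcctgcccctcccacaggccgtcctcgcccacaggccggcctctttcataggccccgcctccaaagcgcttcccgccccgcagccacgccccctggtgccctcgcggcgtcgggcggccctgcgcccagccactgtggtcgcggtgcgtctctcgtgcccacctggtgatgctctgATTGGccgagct
Insig1, chr5:28071162-28071361, plus strand: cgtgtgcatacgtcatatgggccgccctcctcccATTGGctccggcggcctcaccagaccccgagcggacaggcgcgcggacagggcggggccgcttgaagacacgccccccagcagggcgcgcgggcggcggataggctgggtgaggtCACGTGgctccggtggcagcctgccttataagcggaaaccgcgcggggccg
Lss held 1 CCAAT match, 62 to 58 bases before the start, and Insig1 held 1 CCAAT match at 216 to 212 and 1 E-box at 101 to 96. Over the 32851 promoters of the table, the same window held CCAAT in 28.4%, CACGTG in 4.34% and TCACCCCAC in 0.371%. TCACCCCAC was found in none of the 3 windows, and the Islr window held none of the 3 letter strings. This says only that these exact letters are not in the bases searched. The Islr window lies inside the span given above for the gene, so the start used is not the outer end of that span. Bases before that outer end were not searched.

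**Figure D2:**
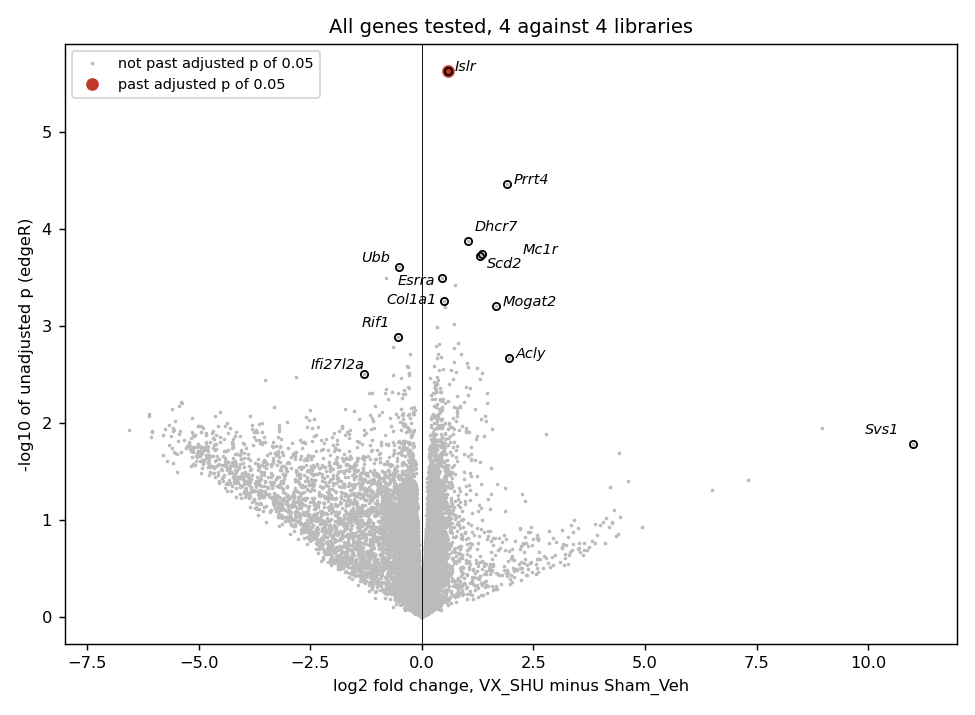
Log2 fold change (VX_SHU against Sham_Veh) on the horizontal axis and −log10 of the unadjusted edgeR p on the vertical axis for each of the 16682 genes tested. Islr is the single gene past the adjusted threshold, and the genes labelled around it did not pass.

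Other count models drew the line elsewhere. DESeq2's Wald test called 14 genes, 12 higher and 2 lower, and limma-voom with sample weights called 8, with 7 genes shared. Islr was called by all 3 tools, with a DESeq2 adjusted p of 2.03e-11 and a limma adjusted p of 0.00786. Prrt4 (chr6:29169230-29179584), a proline-rich transmembrane protein, was called by both other tools and is named here after its values were seen. Prrt4 read 2.06, 2.37, 0.743 and 1.83 CPM in Sham_Veh and 7.05, 5.97, 7.77 and 5.57 CPM in VX_SHU. The groups did not overlap, at a log2 fold change of 1.91 (95% interval 1.23 to 2.59) and an edgeR adjusted p of 0.284. DESeq2 also called Acly, Scd2, Dhcr7, Mogat2, Col1a1, Mc1r, Esrra, Trub2, H2aj and Ubb, which are described below. Its last calls were the unnamed gene 4930412C18Rik, which read 14.1, 11.03, 16.3 and 11.1 CPM in Sham_Veh and 8.86, 6.93, 7.56 and 6.72 CPM in VX_SHU, and Svs1. Svs1, a secretory protein of the seminal vesicle, had no count in the 4 Sham_Veh libraries and 0, 2.73, 0.0427 and 37.5 CPM in VX_SHU, with the highest value in the library rich in epididymis markers.

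How near the combination stood to the untreated sham can be read from the intervals. The median log2 fold change over the 16682 genes was -0.02, the median absolute value was 0.16, and 46.5% of genes had a positive value. The median absolute value was 0.23 for Sham_SHU against Sham_Veh and 0.16 for VX_Veh against Sham_Veh, and these comparisons share the Sham_Veh libraries. For 11643 genes (69.8%) the 95% interval of VX_SHU against Sham_Veh lay wholly within a 2-fold difference in either direction, beside 69.3% for VX_Veh and 66.2% for Sham_SHU against the same controls. Among the 12033 genes with a mean of at least 5 CPM, this held for 10205 (84.8%), beside 84.4% for VX_Veh and 81.8% for Sham_SHU, and for 8250 (68.6%) the interval lay within 1.5-fold. For these genes a net difference larger than the bound is outside the interval, while for the remaining genes the interval reached past it.

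Distances over all genes were also compared. The root mean square difference in log2 CPM averaged 1.14 between a VX_SHU and a Sham_Veh library (range 0.587 to 1.69) and 1.16 between libraries of the same group, 1.30 within Sham_Veh and 1.01 within VX_SHU. The between-group excess was -0.0147 (two-sided exact permutation test over the 70 assignments, p = 0.943; the smallest p these allow is 0.0286). On average, libraries of different groups were thus no farther apart than libraries of the same group. The same measure was -0.0086 for Sham_SHU against Sham_Veh (exact permutation p = 0.886) and -0.0762 for VX_Veh against Sham_Veh (exact permutation p = 0.314), which share the Sham_Veh libraries. Among these 8 libraries, VX_SHU2 lay nearest to Sham_Veh1 and Sham_Veh2, at 0.61 and 0.59, while VX_SHU1 and VX_SHU3 lay at 0.68 and 0.78 from Sham_Veh3, and Sham_Veh4 was at 1.225 to 1.71 from the other 7. Over the series VX_SHU2 was nearest to VX_Veh2, at 0.39, and Sham_Veh4 was nearest to Sham_SHU3, at 0.55. Motile cilia markers, genes of ciliated epithelium, summed to 580, 562, 15.1 and 430 CPM in Sham_Veh and 34.7, 251, 12.8 and 34.2 CPM in VX_SHU, so that VX_SHU2 and the controls nearest to it were also high in these. The excess ran from -0.0277 to 0.0527 over 5 alternatives, which included leaving out the genes of the epididymis, testis and cilia lists. The part of ciliated tissue beyond these listed genes was not tested. Over the 500 genes of highest mean level the excess was 0.0527 (exact permutation p = 0.114). Over all genes tested, without Sham_Veh3, the excess was 0.178.

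**Figure D3:**
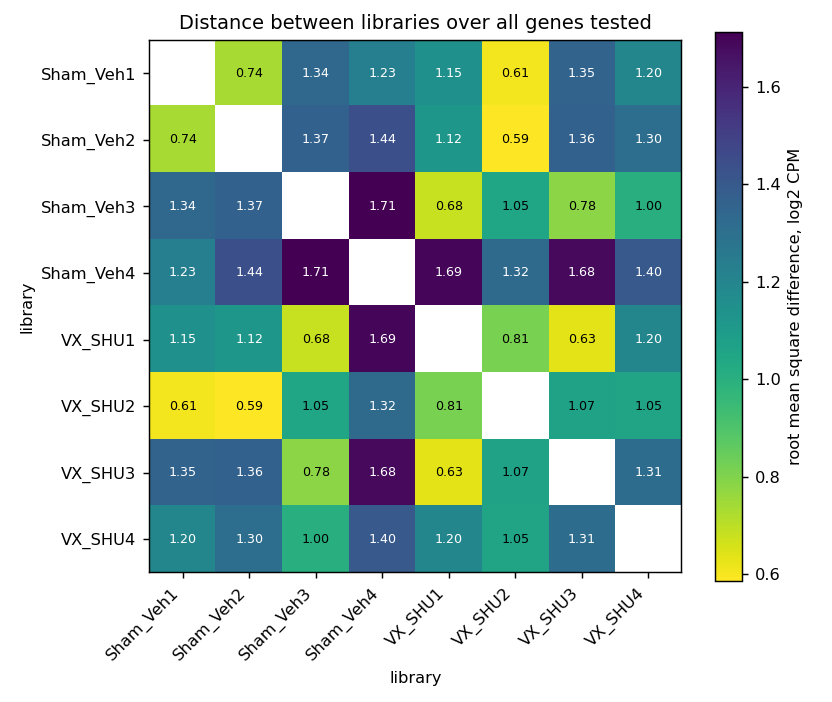
Root mean square difference in log2 CPM for each pair of the 8 libraries (rows and columns); darker cells are farther apart. Between-group pairs run from 0.587 to 1.69, and among these 8 VX_SHU2 is nearest to Sham_Veh1 and Sham_Veh2.

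Comparisons with the single manipulations gave counts that varied with the tool. Sham_SHU differed from Sham_Veh in 19 genes by edgeR (0.114%; 19.6% at an unadjusted p below 0.05), in 1205 by DESeq2 and in 3868 by limma-voom. The edgeR count was 0 to 982 with 1 library left out, the highest without Sham_SHU3, and 527 without VX_Veh1. VX_Veh differed from Sham_Veh in none by edgeR (0%; 1335 genes or 8% unadjusted; DESeq2 called 11 and limma-voom 7). VX_SHU differed from Sham_SHU in no gene (0%; 1778 genes or 10.7% unadjusted; DESeq2 called 93 and limma-voom 783). VX_SHU differed from VX_Veh in 1 gene (0.00599%; 11.6% unadjusted), Emp1, an epithelial membrane protein, while DESeq2 called 54 and limma-voom 20. This edgeR count was 0 in all alternatives except the non-robust dispersion and the fits without Sham_Veh3 or VX_Veh2, where it was 1. The interaction term passed in no gene by edgeR (0%; 794 genes or 4.76% unadjusted; smallest adjusted p 0.612), 8 genes by DESeq2 and 13 by limma-voom. A gene past the threshold in 1 comparison and not in another is therefore not shown to differ between them.

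Genes of lipid synthesis stood higher in VX_SHU in larger numbers than the background, though none passed the edgeR threshold. In the fatty acid synthesis list, 9 of 24 genes had an unadjusted p below 0.05 with a higher level and none with a lower one, against 3.21% and 6.68% of all genes. The list's median log2 fold change was 0.52, against -0.02 over all genes, with 21 of 24 values above 0. Beside it stood medians of 0.77 in Sham_SHU and 0.48 in VX_Veh against the same controls. Unless another value is given, the edgeR adjusted p of each gene named from here on was 0.5002.

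Acly, which splits citrate into the acetyl-CoA used for fatty acids, read 480, 391, 1055 and 491 CPM in Sham_Veh and 1533, 1417, 4482 and 2001 CPM in VX_SHU. The groups did not overlap, and the third library was the highest in each. The log2 fold change was 1.96 (95% interval 0.84 to 3.09), beside 2.38 in Sham_SHU and 1.59 in VX_Veh.
Fasn, the fatty acid synthase, read 3281, 3018, 9022 and 4176 CPM in Sham_Veh and 10450, 7768, 23850 and 9350 CPM in VX_SHU. Sham_Veh3 exceeded the lowest VX_SHU library, so the groups overlapped. The difference was 1.40 (0.34 to 2.46), beside 1.84 in Sham_SHU and 1.04 in VX_Veh, and it was 2.19 without the marker-rich libraries and 0.92 without VX_SHU3.
Scd2 (chr19:44293676-44306864), a stearoyl-CoA desaturase, read 339, 293, 242 and 216 CPM in Sham_Veh and 542, 559, 775 and 827 CPM in VX_SHU. Every VX_SHU library stood above every Sham_Veh library. Its log2 fold change was 1.31 (0.75 to 1.87), beside 1.99 in Sham_SHU (edgeR adjusted p 0.0271) and 0.99 in VX_Veh. Scd1, its close paralogue and the main desaturase of white fat, read 21340, 18510, 35590 and 19070 CPM against 32040, 29220, 53810 and 24140 CPM. Here the groups overlapped, at 0.56 (-0.26 to 1.38; edgeR adjusted p 0.588), and at 0.98 without the marker-rich libraries.
Mlxipl, which encodes the carbohydrate-responsive factor ChREBP, read 116, 121, 165 and 131 CPM in Sham_Veh and 203, 197, 247 and 165 CPM in VX_SHU, a difference of 0.61 (0.17 to 1.05). Its highest control and lowest VX_SHU library were nearly equal.

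The pentose phosphate pathway supplies the NADPH that fatty acid synthesis uses, and 3 of its 7 genes stood higher at an unadjusted p below 0.05, with a list median of 0.30. Pgd, the phosphogluconate dehydrogenase, read 338, 327, 396 and 296 CPM in Sham_Veh and 563, 493, 935 and 456 CPM in VX_SHU, without overlap, at 0.85 (0.28 to 1.43). Tkt, the transketolase, differed by 1.1 (0.17 to 2.04), and G6pdx, the first enzyme of the pathway, by 0.64 (0.01 to 1.26), both with overlapping libraries.
The counts of both lists moved with single libraries. The 9 fatty acid synthesis genes became 4 without Sham_Veh1 or Sham_Veh2, 5 without Sham_Veh4, 3 without VX_SHU3 and 15 without Sham_Veh3 or without the 6 marker-rich libraries, with a median of 0.89 in the last case. The 3 pentose phosphate genes became 1 without Sham_Veh1, Sham_Veh2, Sham_Veh4 or VX_SHU3, and 5 without VX_Veh1.

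Of the 37 lists, the cholesterol list held the largest share of genes at an unadjusted p below 0.05: 14 of 27 stood higher and none lower. For 10 of the 27 the groups did not overlap, against 2.45% of all genes, and 26 of 27 values lay above 0, with a median of 0.54 beside 0.83 in Sham_SHU and 0.30 in VX_Veh. The summed level of the list was 1480 to 1568 CPM in Sham_Veh and 1836 to 2326 CPM in VX_SHU, so the ranges did not meet. Over the alternatives the number standing higher ranged from 9 to 16, and was 12 without the marker-rich libraries.
Dhcr7 (chr7:143823167-143848410), which makes cholesterol from its last precursor, read 10.3, 11.8, 12.5 and 12.1 CPM in Sham_Veh and 21.4, 19.8, 30.9 and 23.9 CPM in VX_SHU. The lowest VX_SHU library lay well above the highest control. Its log2 fold change was 1.04 (0.61 to 1.46), beside 1.42 in Sham_SHU (edgeR adjusted p 0.0319) and 0.52 in VX_Veh.
Lss (chr10:76531565-76557139), the lanosterol synthase that closes the sterol rings, read 29.9, 28.1, 35.5 and 26.5 CPM in Sham_Veh and 49.99, 45.7, 89.7 and 62.3 CPM in VX_SHU. The groups were apart, with VX_SHU3 the highest library. The difference was 1.05 (0.43 to 1.66), beside 1.73 in Sham_SHU (edgeR adjusted p 0.0422) and 0.53 in VX_Veh.
Insig1 (chr5:28071412-28078662), the protein that holds SREBP precursors in the endoplasmic reticulum when sterols are plentiful and is itself an SREBP target, read 200, 162, 205 and 192 CPM in Sham_Veh. In VX_SHU it read 301, 350, 520 and 281 CPM, again with no overlap and VX_SHU3 highest. The difference was 0.94 (0.31 to 1.56), beside 1.84 in Sham_SHU (edgeR adjusted p 0.0415) and 0.30 in VX_Veh.
Mvd, the mevalonate diphosphate decarboxylase, read 8.74, 7.90, 8.76 and 7.04 CPM against 11.2, 17.5, 16.1 and 23.2 CPM, at 1.07 (0.40 to 1.74). Idi1, the isomerase of the next step, read 64.2, 58.5, 54.6 and 68.8 CPM against 83.4, 85.0, 113 and 92.6 CPM, at 0.60 (0.23 to 0.98). Both were without overlap.

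**Figure D4:**
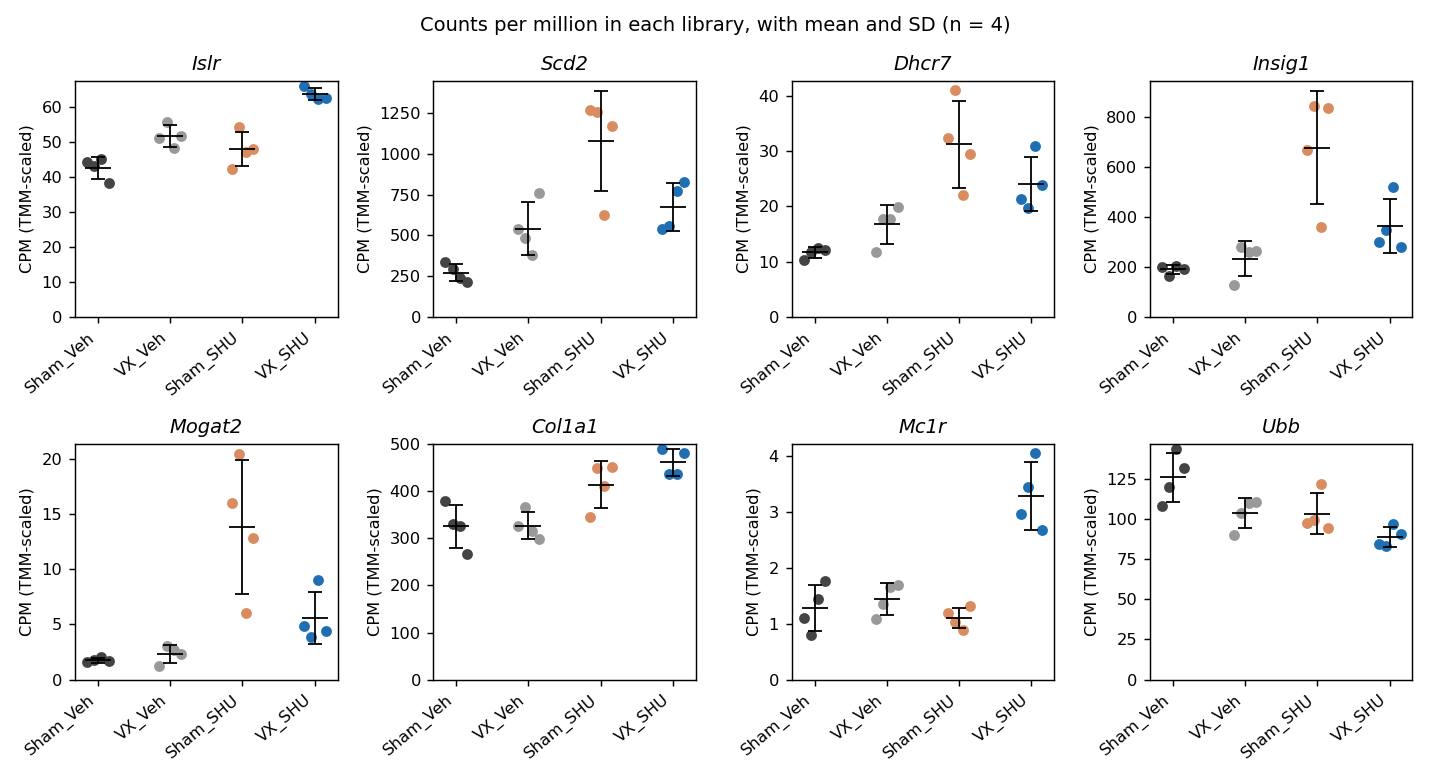
CPM of 8 genes in each library of the 4 groups; points are libraries, and bars are the mean and SD (n = 4). VX_SHU lies wholly above Sham_Veh for each gene except Ubb, where it lies wholly below.

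Triglyceride assembly was less uniform: 4 of 22 genes stood higher at an unadjusted p below 0.05 and none lower, and the list median was 0.09. Without the marker-rich libraries 7 stood higher and the median was 0.46, and with 3 marker covariates the median was -0.08. Mogat2 (chr7:99219084-99238611), a monoacylglycerol acyltransferase, read 1.56, 1.75, 2.02 and 1.65 CPM in Sham_Veh and 4.87, 3.85, 9.05 and 4.43 CPM in VX_SHU. Though low, its groups did not overlap. The log2 fold change was 1.67 (0.85 to 2.48), beside 2.98 in Sham_SHU (edgeR adjusted p 0.0271) and 0.40 in VX_Veh.
Agpat2, which adds the second acyl chain to the glycerol backbone, read 329, 323, 554 and 390 CPM in Sham_Veh and 782, 656, 1203 and 650 CPM in VX_SHU, at 1.04 (0.37 to 1.72). Dgat2, which adds the last acyl chain, read 1251, 1483, 1773 and 1563 CPM against 2589, 2267, 3609 and 2094 CPM, at 0.80 (0.24 to 1.36). Neither gene's groups overlapped, and both had a value near that of Sham_SHU (1.23 and 1.08), while VX_Veh stood at 0.34 and 0.04.
Slc27a4, a fatty acid transporter, differed by 0.46 (0.10 to 0.81).
Among 18 genes of lipolysis and the lipid droplet, 2 stood higher at an unadjusted p below 0.05. Plin3, a droplet coat protein, read 75.0, 72.4, 69.6 and 69.7 CPM in Sham_Veh and 81.8, 82.4, 85.5 and 81.8 CPM in VX_SHU, a difference of only 0.21 (0.06 to 0.36) with no overlap. Pnpla3, a droplet lipase relative that insulin and carbohydrate induce, differed by 0.53 (0.02 to 1.03). Fatty acid oxidation had no gene of 22 at an unadjusted p below 0.05 in either direction, by edgeR, and its median was 0.02. That median ran from -0.157 to 0.327 over the alternatives.

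**Figure D5:**
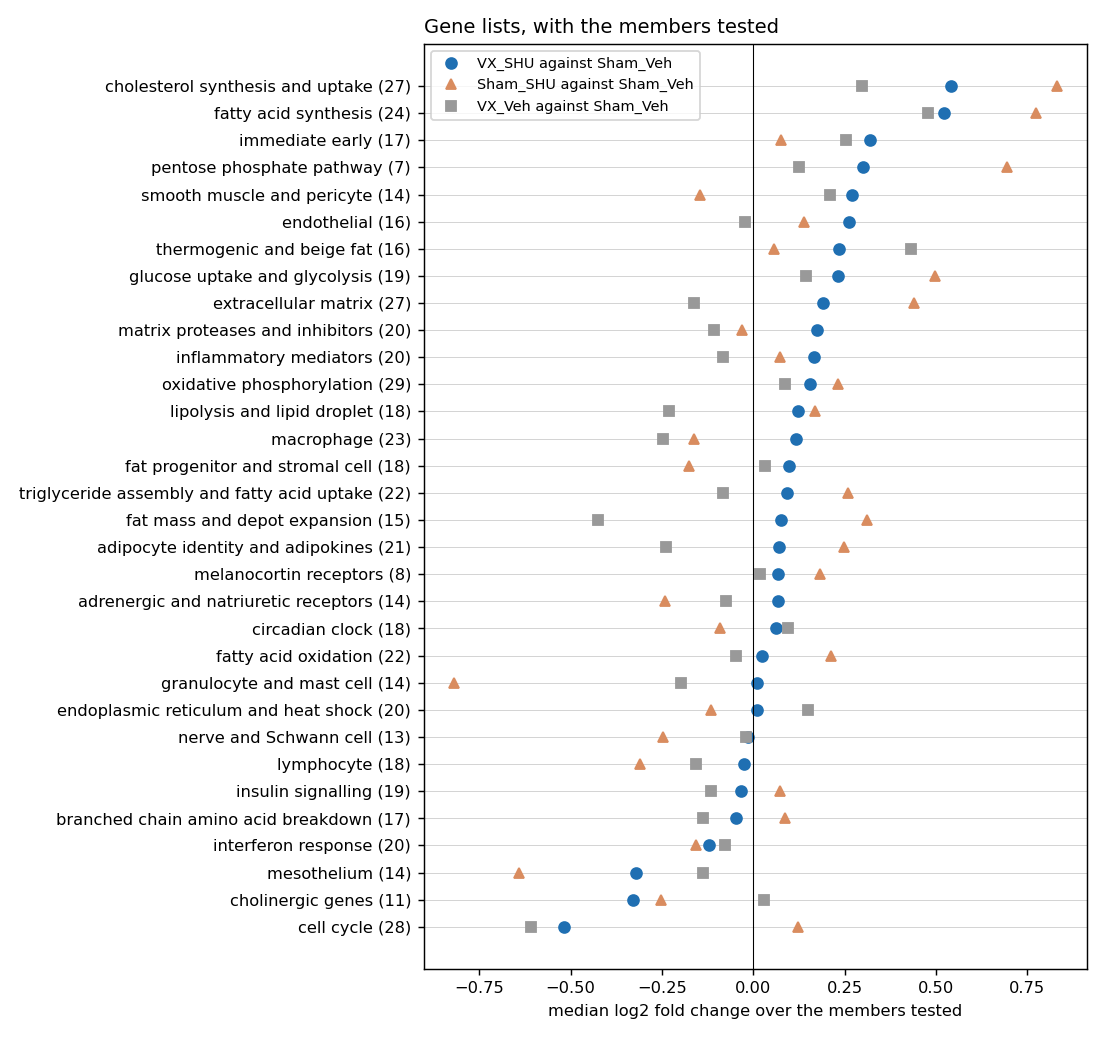
Median log2 fold change of each gene list, for VX_SHU, Sham_SHU and VX_Veh each against Sham_Veh, with the number of members tested; the comparisons share the Sham_Veh libraries. Lists of other tissues are left out. The cholesterol and fatty acid synthesis lists have VX_SHU medians of 0.54 and 0.52.

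In glucose use, 2 of 19 genes stood higher at an unadjusted p below 0.05. Pfkp, a phosphofructokinase, read 63.5, 66.1, 70.5 and 74.5 CPM in Sham_Veh and 95.2, 77.9, 106 and 91.3 CPM in VX_SHU, at 0.43 (0.19 to 0.67) without overlap. It stood at 0.44 in Sham_SHU and -0.03 in VX_Veh. Pkm, the pyruvate kinase, read 387, 411, 429 and 348 CPM against 437, 462, 715 and 578 CPM, at 0.48 (0.06 to 0.90), beside 0.83 in Sham_SHU and 0.54 in VX_Veh.
Oxidative phosphorylation had all 29 members above 0, between 0.04 and 0.36 with a median of 0.15, and none at an unadjusted p below 0.05 by edgeR (0 by DESeq2, 11 by limma-voom). The number with an unadjusted p below 0.05 was 10 without the marker-rich libraries and 3 without Sham_Veh3, and the median was 0.05 without VX_SHU3. Over the alternatives the list median ran from -0.033 to 0.328. Of all genes tested, 46.5% had a value above 0. Among the genes of smallest p was a regulator of mitochondrial supply. Esrra, the nuclear receptor that drives many respiratory genes, read 37.9, 39.0, 40.3 and 36.6 CPM in Sham_Veh and 55.0, 52.9, 57.8 and 45.4 CPM in VX_SHU. Its groups were apart by 0.46 (0.25 to 0.66), beside 0.25 in Sham_SHU and 0.24 in VX_Veh.
Trub2, a pseudouridine synthase that modifies mitochondrial RNA, read 25.8, 25.0, 25.1 and 25.2 CPM in Sham_Veh and 42.5, 38.4, 48.8 and 38.9 CPM in VX_SHU. The controls were almost identical and the groups well apart, at 0.74 (0.40 to 1.08), beside 1.00 in Sham_SHU (edgeR adjusted p 0.0401) and 0.20 in VX_Veh.
None of 16 thermogenic, 19 insulin signalling or 17 branched chain amino acid genes had an unadjusted p below 0.05 by edgeR. Their medians were 0.23, -0.03 and -0.05. The thermogenic median was 0.01 without VX_SHU3, and the other two turned to 0.05 and 0.07 without Sham_Veh3 and to 0.13 and 0.20 without the marker-rich libraries.

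Adipocyte identity differed little in the reported analysis. Of 21 genes, 1 stood higher at an unadjusted p below 0.05, against 3.21% of all genes, and the median was 0.07. Over the alternatives, which include the fit without the marker-rich libraries, the median ran from -0.195 to 0.406. Pparg, the master regulator of adipocytes, read 246, 258, 340 and 283 CPM in Sham_Veh and 260, 273, 364 and 208 CPM in VX_SHU, at -0.03 (-0.54 to 0.47; edgeR adjusted p 0.966). Adipoq read 2357, 2382, 3957 and 2756 CPM against 3173, 2510, 2997 and 2167 CPM, at -0.08 (-0.61 to 0.45; edgeR adjusted p 0.912). These 2 genes had overlapping libraries, their intervals exclude a 2-fold difference, and without the marker-rich libraries both values lay above 0, at 0.28 and 0.325.
Lep, the leptin gene, whose level follows fat cell size, read 522, 653, 225 and 529 CPM in Sham_Veh and 607, 870, 867 and 479 CPM in VX_SHU. The groups overlapped, at 0.55 (-0.24 to 1.34; edgeR adjusted p 0.581), beside 1.08 in Sham_SHU and -0.28 in VX_Veh, and the value was 0.32 without Sham_Veh3.
In the list of fat mass and depot expansion, 2 of 15 genes stood higher at an unadjusted p below 0.05, and the medians were 0.07 in VX_SHU, 0.31 in Sham_SHU and -0.43 in VX_Veh. Mest, an imprinted gene that follows fat expansion, read 62.6, 75.6, 24.0 and 45.3 CPM in Sham_Veh and 51.5, 64.9, 145 and 60.8 CPM in VX_SHU. VX_SHU3 alone stood above all controls. Its difference of 0.63 (-0.19 to 1.46; edgeR adjusted p 0.551) lay between 1.39 in Sham_SHU and -1.06 in VX_Veh, and was 0.19 without VX_SHU3.
Emp1 read 528, 612, 421 and 566 CPM in Sham_Veh and 627, 576, 627 and 539 CPM in VX_SHU, overlapping at 0.16 (-0.17 to 0.49; edgeR adjusted p 0.700). It is the gene by which VX_SHU differed from VX_Veh, where it stood at -1.03 against Sham_Veh. Trp53inp2, an autophagy and adipocyte gene, showed 0.41 (0.07 to 0.74) in VX_SHU, 0.62 in Sham_SHU and -0.59 in VX_Veh. Bmp3, a bone morphogenetic protein of the white fat stroma, showed 1.1 (0.19 to 2.01), 1.95 and 0.07 in the same order, and neither gene's VX_SHU and Sham_Veh libraries overlapped.

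The genes that passed in Sham_SHU were measured in the combination as well. Besides Scd2, Dhcr7, Mogat2, Insig1, Lss and Trub2, these included Anxa2, a calcium-dependent membrane protein, with a log2 difference from Sham_Veh of 1.03 in Sham_SHU and 0.32 (-0.01 to 0.65) in VX_SHU. Tuba1a, a tubulin with close copies in the genome, showed 1.95 and 0.73 (0.06 to 1.40). Olfm1, a secreted olfactomedin, showed 1.43 and 0.52 (0.06 to 0.99), and Fmr1, an RNA-binding protein, 1.18 and 0.47 (0.10 to 0.84). The values were smaller in VX_SHU for each of these, but the same genes were chosen for passing in Sham_SHU, and the direct test of VX_SHU against Sham_SHU passed for none of them by edgeR.

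Several receptors for neural signals were at low levels. Of 8 melanocortin genes tested, 1 stood higher and 1 lower at an unadjusted p below 0.05. Mc1r (chr8:123407082-123410744), the melanocortin receptor of pigment cells and of some immune cells, read 1.11, 0.801, 1.45 and 1.76 CPM in Sham_Veh and 2.97, 3.45, 4.06 and 2.67 CPM in VX_SHU. Its groups did not overlap, at 1.36 (0.78 to 1.94). After either manipulation alone it stood at -0.21 in Sham_SHU and 0.18 in VX_Veh against Sham_Veh, and its interaction term was 1.39, not past the edgeR threshold. DESeq2 called Mc1r in VX_SHU against Sham_Veh with an adjusted p of 0.0024, and limma with 0.00786.
Agrp, a natural antagonist of some melanocortin receptors, read 0.458, 0.655, 0.454 and 0.682 CPM in Sham_Veh and 0.443, 0.373, 0.256 and 0.305 CPM in VX_SHU, at -0.70. Mrap, the accessory protein through which adipocytes place the corticotropin receptor at their surface, was the abundant member, at 115, 104, 222 and 132 CPM against 203, 171, 264 and 149 CPM, with overlap (0.46, -0.26 to 1.18; edgeR adjusted p 0.608).
Of 14 adrenergic and natriuretic receptor genes, 1 stood lower at an unadjusted p below 0.05, a share near the 6.68% of all genes. The list was abundant as a whole, with sums of 1714 to 2114 CPM in Sham_Veh and 1408 to 2377 CPM in VX_SHU. Adrb1, a noradrenaline receptor, read 5.38, 3.79, 10.8 and 7.505 CPM in Sham_Veh and 3.10, 4.35, 4.10 and 2.71 CPM in VX_SHU. The libraries overlapped narrowly, at -0.94 (-1.74 to -0.15), beside -0.87 in Sham_SHU and -0.79 in VX_Veh, and the value was -0.21 without the marker-rich libraries. Of 11 cholinergic and 13 nerve and Schwann cell genes none had an unadjusted p below 0.05 by edgeR, with medians of -0.33 and -0.01; the former was -0.05 without Sham_Veh4 and 0.11 without the marker-rich libraries.

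Genes of the extracellular matrix list stood somewhat higher. Of 27 extracellular matrix genes, 8 did so at an unadjusted p below 0.05 and none lower, and 24 values lay above 0, with medians of 0.19 in VX_SHU, 0.44 in Sham_SHU and -0.16 in VX_Veh. In bulk tissue, more RNA per cell and more cells of a type cannot be told apart. Col1a1 (chr11:94936224-94953042), a chain of type I collagen, read 379, 330, 326 and 267 CPM in Sham_Veh and 490, 437, 437 and 482 CPM in VX_SHU. Every VX_SHU library was above every control, at 0.50 (0.26 to 0.74), beside 0.35 in Sham_SHU and 0.00 in VX_Veh. Bgn, the matrix proteoglycan biglycan, read 247, 233, 218 and 190 CPM against 289, 314, 255 and 306 CPM, at 0.39 (0.16 to 0.62). Col6a1, a chain of the type VI collagen that surrounds adipocytes, read 354, 377, 330 and 292 CPM against 459, 406, 508 and 419 CPM, at 0.40 (0.13 to 0.68), beside 0.68 in Sham_SHU and -0.02 in VX_Veh. Bgn and Col6a1 were without overlap as well. The number of extracellular matrix genes at an unadjusted p below 0.05 was 3 without the marker-rich libraries and 4 without VX_SHU3. In a separate list of 20 matrix proteases and inhibitors, 1 stood higher at an unadjusted p below 0.05, near the 3.21% of all genes. Of its values 6 lay below 0, and the median was 0.17. The 1 gene was Adamts2, which trims procollagen. It read 93.4, 104, 115 and 94.4 CPM against 141, 121, 137 and 144 CPM, without overlap, at 0.42 (0.14 to 0.69). None of 18 genes of fat progenitor and stromal cells, the cells known to express Islr, was at an unadjusted p below 0.05 by edgeR, with a median of 0.10.

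A few vascular genes stood higher. All 16 endothelial markers had values above 0, between 0.06 and 0.56. Their median was 0.26, beside 0.14 in Sham_SHU and -0.02 in VX_Veh. At an unadjusted p below 0.05 stood 2 of them, against 3.21% of all genes higher. This number was 7 without Sham_Veh3, 8 without VX_Veh1 and 0 without VX_SHU2. Plvap, the diaphragm protein of fenestrated capillaries, read 62.0, 67.3, 75.9 and 51.9 CPM in Sham_Veh and 98.5, 103, 64.9 and 87.6 CPM in VX_SHU, with VX_SHU3 among the controls (0.46, 0.09 to 0.83).
Of 14 smooth muscle and pericyte genes, 2 stood higher at an unadjusted p below 0.05, against the same 3.21%. Cspg4, the pericyte proteoglycan NG2, read 36.2, 46.9, 44.9 and 49.1 CPM against 74.5, 72.9, 173 and 82.5 CPM, at 1.19 (0.38 to 1.99), beside 1.61 in Sham_SHU and 0.63 in VX_Veh. Notch3, a receptor of mural cells, differed by 0.42 (0.09 to 0.76), and neither gene's groups overlapped.

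Some interferon-response genes stood lower in fat of the combination. Of 20 genes, 3 did so at an unadjusted p below 0.05 and none higher, against 6.68% and 3.21% of all genes, and 16 values lay below 0, with a median of -0.12. Ifi27l2a, an interferon-inducible mitochondrial protein, read 1058, 751, 1613 and 1122 CPM in Sham_Veh and 573, 493, 271 and 529 CPM in VX_SHU. No VX_SHU library reached the lowest control. The log2 fold change was -1.28 (-2.06 to -0.51), beside -1.14 in Sham_SHU and -1.10 in VX_Veh. It was -0.98 without the marker-rich libraries. Ifi204, a DNA-sensing protein of myeloid cells, read 42.7, 35.7, 43.5 and 37.4 CPM against 35.4, 31.6, 31.3 and 34.8 CPM, at -0.26 (-0.48 to -0.04). Ifi205, its close relative, showed -0.30 (-0.58 to -0.01), and reads may be shared between the copies. The list's median was 0.03, with no gene at an unadjusted p below 0.05, without the marker-rich libraries, and 1 gene remained without Sham_Veh1, Sham_Veh3, Sham_Veh4, VX_SHU2 or VX_SHU3.
Of 23 macrophage genes, 1 stood higher at an unadjusted p below 0.05, a share near the 3.21% of all genes. The list median was 0.12. Gpnmb, a gene of lipid-laden macrophages, read 29.6, 49.98, 42.8 and 27.9 CPM in Sham_Veh and 57.6, 25.6, 47.0 and 185 CPM in VX_SHU, so that VX_SHU4, which is also the library rich in epididymis markers, alone stood apart. Among 20 inflammatory mediators 1 gene stood higher at this threshold, Tgfb1, at 0.36 (0.04 to 0.67), again near the share of all genes. Of 18 lymphocyte genes none did by edgeR.

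Single genes outside these groups had the smallest p among those standing lower. Ubb (chr11:62551171-62553213), a polyubiquitin gene with near-identical repeats also present in other ubiquitin genes, read 108, 120, 144 and 131 CPM in Sham_Veh and 84.3, 83.2, 96.5 and 90.3 CPM in VX_SHU. The groups did not overlap, at -0.51 (-0.73 to -0.28), beside -0.28 in each single manipulation. Rif1, which sets replication timing and protects broken DNA ends, read 36.0, 32.0, 35.8 and 46.0 CPM against 26.1, 27.5, 22.9 and 26.1 CPM, at -0.54 (-0.83 to -0.25). Ddx19b, an RNA helicase of messenger RNA export, showed -0.46 (-0.75 to -0.18). Agbl3, a carboxypeptidase that trims glutamate from tubulin, read 14.2, 13.9, 14 and 19.5 CPM against 9.26, 9.88, 10.2 and 10.2 CPM, at -0.64 (-0.99 to -0.29). The highest Sham_Veh library of Rif1, Ddx19b and Agbl3 was Sham_Veh4, the one rich in testis markers. Smaller differences without overlap were found for Actr6 (-0.27), Ppp1r9a (-0.34), Sdccag8 (-0.31) and Btrc (-0.29), which encode a chromatin-remodelling subunit, an actin-binding scaffold, a centrosomal protein and a substrate receptor of a ubiquitin ligase. Phf10, a subunit of a chromatin-remodelling complex, stood at -0.29 with overlap. Without the marker-rich libraries Ppp1r9a, Sdccag8, Btrc and Phf10 stood nearer to 0, at -0.12, -0.18, -0.14 and -0.08.
On the higher side stood H2aj, a histone variant, with 28.7, 30.6, 37.3 and 26.9 CPM in Sham_Veh and 41.6, 44.3, 43.2 and 47.4 CPM in VX_SHU, at 0.52 (0.26 to 0.77), beside 0.04 in Sham_SHU and 0.09 in VX_Veh. Tmem63a, a mechanosensitive ion channel, read 37.1, 39.6, 37.3 and 32.8 CPM against 46.9, 46.0, 49.0 and 44.6 CPM, at 0.34 (0.17 to 0.52). Ptges, a prostaglandin E synthase called by limma-voom alone and named after its values were seen, read 53.0, 51.4, 105 and 75.8 CPM against 144, 119, 211 and 201 CPM, at 1.24 (0.51 to 1.98). All 3 were without overlap.

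Cell cycle genes stood lower in a count that rested on 1 control library. Of 28 genes, 9 stood lower at an unadjusted p below 0.05 and none higher, with a median of -0.52. Cdc20, an activator of the anaphase-promoting complex, read 3.13, 2.51, 2.27 and 19.3 CPM in Sham_Veh and 1.95, 2.05, 2.22 and 2.25 CPM in VX_SHU. Bub1, a spindle checkpoint kinase, read 1.79, 0.837, 1.20 and 14.5 CPM against 0.97, 0.528, 1.75 and 1.11 CPM. In both, Sham_Veh4 stood far above the other 7 libraries, and it also held the 3896 CPM of testis markers. Without Sham_Veh4, no cell cycle gene had an unadjusted p below 0.05 and the median was 0.02. The number was 2 to 3 without VX_SHU1, VX_SHU2 or VX_SHU4. The testis and sperm list behaved alike, with 8 of 20 genes lower, a median of -2.78, and 0 genes at a median of 0.08 without that library.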

How the data were processed

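Messenger RNA (polyA) of gonadal fat was sequenced from 16 libraries, 4 in each of 4 groups. The deposited table holds whole-number read counts per gene that the authors had not normalized, judged from the values, with 24454 genes. The submitters' processing notes name bcl2fastq, TopHat, edgeR and mm10 without versions, while for the counting tool, annotation and strand setting the entry is: not given in the sources used here. Overlapping, antisense and near-identical genes may therefore share reads. Symbols matched the RefSeq gene table for 24374 genes.

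From these deposited counts, edgeR 4.0.16 (R 4.3.3) fitted 1 mean per group to all 16 libraries (filterByExpr by group, 16682 genes kept, TMM scaling, robust quasi-likelihood F test). Benjamini-Hochberg adjusted p-values run over all genes kept, with a threshold of 0.05. The SE is the absolute log2 fold change divided by the root of F. Named genes were the 10 of smallest p in each direction with a mean of at least 5 CPM (only Islr passed; unnamed models left out), up to 4 of smallest p in each of 37 lists, and a fixed set around Lep, Adipoq, Fasn and Insig1; others are said to be chosen after their values were seen. Some genes of this rule are not reported here. Members and lists were chosen with earlier results of these data known. Distances used log2 CPM with a prior count of 2. Alternatives were DESeq2 1.42.0, limma 3.58.1 (voom), other scaling and filters, only the 2 groups, a replicate block, marker covariates, libraries left out, and other gene sets or prior counts for the distances. Counts of libraries in a group differed beyond sampling noise (chi-square per degree of freedom 20.2 to 188 over pairs), so each counts as 1 sample. Scripts were tested on simulated data.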

Additional observations from a re-analysis of the deposited data

Results flagged for a closer look

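Some libraries stood apart from the other 3 of their group by more than Dixon's 95% critical value for 4 samples. This was so in 22 of 176 groups of values tested. The rate of about 1 in 20 by chance holds for independent, normally distributed values. These were CPM of genes partly chosen by p and measured in the same libraries, so the count cannot be set against that rate. The part of these libraries in the comparison was tested only by leaving each out, by leaving out the marker-rich libraries and by marker covariates. Among markers of other tissues, VX_SHU4 held 12400 CPM of epididymis markers against 7.95 to 63.8 CPM in the other VX_SHU libraries, and 37.5 CPM of Svs1 against 0 to 2.73 CPM. Sham_Veh4 held 3896 CPM of testis and sperm markers against 66.2 to 388 CPM. It also held the highest levels of the division genes Cdc20 (19.3 CPM against 2.27 to 3.13 CPM) and Bub1 (14.5 CPM against 0.837 to 1.79 CPM), and of Agbl3 (19.5 CPM against 13.9 to 14.2 CPM) and Btrc (44.3 CPM against 35.6 to 36.8 CPM). VX_SHU2 held 251 CPM of motile cilia markers against 12.8 to 34.7 CPM.

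Sham_Veh3 and VX_SHU3 stood apart in some genes of fatty acid synthesis and the pentose phosphate pathway. In Sham_Veh3, Acly read 1055 CPM against 391 to 491 CPM, Scd1 35590 CPM against 18510 to 21340 CPM, Tkt 1317 CPM against 500.4 to 586 CPM, and G6pdx 285 CPM against 164 to 170 CPM. In VX_SHU3, Fasn read 23850 CPM against 7768 to 10450 CPM, Tkt 2864 CPM against 1125 to 1220 CPM, and G6pdx 457 CPM against 249 to 263 CPM. The droplet coat gene Plin3 read 85.5 CPM there against 81.8 to 82.4 CPM. VX_SHU3 was also high in Mest (145 CPM against 51.5 to 64.9 CPM), Bmp3 (33.5 CPM against 14.5 to 17.2 CPM) and Cspg4 (173 CPM against 72.9 to 82.5 CPM). Sham_Veh3 was high in Prg2 (2.06 CPM against 0.692 to 0.916 CPM) and low in Tuba1a (112 CPM against 201 to 220 CPM). Egr1 was low in Sham_Veh1, at 38.7 CPM against 51.1 to 52.2 CPM.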

How the results depend on the processing

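The count of genes past the threshold in VX_SHU against Sham_Veh, 1 in the reported analysis, was 14 with DESeq2 and 8 with limma-voom. It was 0 when only the 2 groups were fitted, with 2 or 3 marker covariates and without the 6 marker-rich libraries, and 0 to 1 with 1 library left out. The replicate block gave 0 calls and 920 genes at an unadjusted p below 0.05, against 1651 without it. The replicate numbers were not taken to pair the libraries, since not every pair's correlation was over 0.1: the correlation of same-numbered deviations was -0.04 for number 1, 0.55 for number 2, 0.39 for number 3 and 0.29 for number 4, so that 3 of the 4 numbers correlated best with their own, a hint from the data only, while number 1 correlated best with number 2 (0.56). With the block Islr stood at an edgeR adjusted p of 0.111. Genes at an unadjusted p below 0.05 numbered 842 without Sham_Veh4, 885 without VX_SHU3, 957 without VX_SHU1, 2704 without Sham_Veh3, 814 and 764 with 2 and 3 covariates, 2449 with no filter and 3521 by limma-voom. The share standing higher among them was 536 of 1651 as reported, 749 of 1443 with the stricter filter and 1111 of 1934 without the marker-rich libraries. Without Sham_Veh4 it was 643 of 842.

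The between-group excess of distance turned positive at 0.0527 over the 500 genes of highest mean, and ranged from -0.116 to 0.178 with 1 library left out. Pparg turned to 0.013 with no filter, 0.05 by limma-voom and 0.28 without the marker-rich libraries, and Adipoq to 0.177 and 0.325 by the last 2; with 1 library left out they ranged from -0.19 to 0.086 and from -0.161 to 0.121. Depth limits genes at a few counts, such as Mc1r and Agrp, and the design has 4 libraries a group. Without VX_SHU3 the values of Scd1, Tkt, G6pdx, Anxa2, Fmr1, Olfm1 and Tuba1a were 0.27, 0.66, 0.38, 0.17, 0.31, 0.33 and 0.44, each over 1.5 times smaller. The cause of these shifts was not tested.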

Other observations

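Several groups not described above also differed in single genes. Of 17 immediate early genes, 2 stood higher in VX_SHU at an unadjusted p below 0.05, Ier2 and Egr1, against 3.21% of all genes. The list median was 0.32, beside 0.08 in Sham_SHU and 0.25 in VX_Veh against the same controls. Ier2, an early response regulator, read 15, 17.1, 20.4 and 13.8 CPM in Sham_Veh and 26.2, 23.4, 20.8 and 20.6 CPM in VX_SHU, without overlap, at 0.46 (95% interval 0.14 to 0.77; edgeR adjusted p 0.5002). Egr1, a zinc finger transcription factor, read 38.7, 51.1, 51.2 and 52.2 CPM in Sham_Veh and 96.3, 72.2, 72.6 and 48.5 CPM in VX_SHU, with overlap, at 0.58 (0.12 to 1.04; edgeR adjusted p 0.5002). Fosb, a subunit of the AP-1 factor, read 3.97, 3.90, 4.09 and 4.96 CPM in Sham_Veh and 24.2, 16.9, 3.93 and 4.16 CPM in VX_SHU, so 2 of the 4 VX_SHU libraries stood well above the other 6 libraries, at an unadjusted p of 0.0545. Of 18 circadian clock genes 1 stood higher at an unadjusted p below 0.05, against 3.21% of all genes. It was Cry2, a repressor of the clock, at 0.29 (0.06 to 0.53, edgeR adjusted p 0.5002), and the list median was 0.06.

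Mesothelial genes, which cover the surface of the fat pad, had 12 of 14 values below 0 and a median of -0.32, with none at an unadjusted p below 0.05 by edgeR. Krt19, a keratin of this layer, read 50.7, 46.0, 14.8 and 10.9 CPM in Sham_Veh and 10.3, 29.0, 7.39 and 15.1 CPM in VX_SHU (edgeR adjusted p 0.594). Sham_Veh1, Sham_Veh2 and VX_SHU2 were the highest libraries. Of 14 granulocyte and mast cell genes, 1 stood lower at an unadjusted p below 0.05, Prg2, near the 6.68% of all genes. The list had 7 values above 0 and 7 below, with a median of 0.01. Mpo, another member, stood higher without overlap, at 0.30. Prg2, an eosinophil granule protein, read 0.916, 0.692, 2.06 and 0.790 CPM in Sham_Veh and 0.310, 0.559, 0.256 and 0.420 CPM in VX_SHU, at -1.51 (-2.55 to -0.47; edgeR adjusted p 0.5002) without overlap.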
